A study of Homo sapiens with 12 samples.

Results

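Adding the AKT inhibitor ipatasertib to the EZH2 inhibitor tazemetostat was examined in SUM149PT cells, a line established from inflammatory breast cancer and known as negative for hormone receptors and for amplified ERBB2. The comparison used 6 of the 12 RNA sequencing libraries: 3 from cells given 5 µM tazemetostat with no ipatasertib and 3 from cells given both inhibitors, here called the combination. All 6 libraries therefore carry tazemetostat, which began on day -5 and continued to the end, and the groups differ by 24 h of 5 µM ipatasertib in 2% serum. The other 6 libraries, 3 under DMSO and 3 with ipatasertib alone, entered the same fit and gave the effect of the same ipatasertib exposure without tazemetostat. It is 1 cell line, and the labels do not say that libraries A, B and C of a group were grown separately, so the tests below speak for the spread among these libraries, which may be technical only. Of 23228 genes in the files, 14874 passed the filter on low counts and were tested.

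AKT is a kinase that growth factor receptors switch on through PI3K. It phosphorylates the FOXO transcription factors and keeps them out of the nucleus, so that blocking AKT lets them act on genes such as IRS2, INSR and ERBB3, which feed signal back into the same pathway. AKT also promotes growth through mTORC1, with known effects on ribosome production, glycolysis, sterol synthesis and the brake on autophagy. EZH2 is the catalytic subunit of PRC2, which places the repressive H3K27 methyl marks.

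The promoters of a few genes that rose show the letters at issue. FOXO factors are known to bind the letters GTAAACA, read on either strand as GTAAACA or TGTTTAC. These letters were found in at least 1 promoter of 5 of the 28 FOXO-induced genes with a RefSeq promoter, out of 32 such genes tested, and in 3.58% of the 9998 tested genes with a promoter. Promoters on 1 chromosome were left out of this search, and its genes counted as having no promoter. The 28, the 9998 and the match below therefore do not cover the whole genome. Only 67.2% of the tested genes were matched, so a comparison of motif shares between sets of changed genes is void and none is given. The promoters below are from RefSeq (GRCh38.p14), 250 bases before the start of the gene and 30 after, written 5′ to 3′ on the strand of the gene, with the searched letters in capitals. They belong to 3 FOXO-induced genes and to FOXO4 itself, the members that rose beyond 1.5-fold and hold the letters. A match is a description of the sequence and does not show binding.
YPEL3, chr16:30096184-30096463, minus strand: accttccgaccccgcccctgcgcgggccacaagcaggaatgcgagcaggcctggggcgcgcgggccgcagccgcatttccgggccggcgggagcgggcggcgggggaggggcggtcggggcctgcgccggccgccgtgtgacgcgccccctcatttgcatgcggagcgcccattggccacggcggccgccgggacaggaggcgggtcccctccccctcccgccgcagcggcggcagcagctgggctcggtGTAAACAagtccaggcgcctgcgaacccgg
PIK3IP1, chr22:31292459-31292738, minus strand: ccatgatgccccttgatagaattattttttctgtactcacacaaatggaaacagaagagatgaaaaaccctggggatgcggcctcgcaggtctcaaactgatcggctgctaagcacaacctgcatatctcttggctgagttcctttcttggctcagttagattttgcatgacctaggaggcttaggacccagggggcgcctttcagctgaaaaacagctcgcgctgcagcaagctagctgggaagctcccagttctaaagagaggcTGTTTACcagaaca
TXNIP, chr1:145996550-145996829, minus strand: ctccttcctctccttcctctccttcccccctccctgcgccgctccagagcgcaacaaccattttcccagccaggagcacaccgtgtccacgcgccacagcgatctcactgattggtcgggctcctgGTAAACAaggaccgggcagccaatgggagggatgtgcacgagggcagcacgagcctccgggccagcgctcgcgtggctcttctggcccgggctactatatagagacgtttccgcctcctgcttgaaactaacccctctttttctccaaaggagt
FOXO4, chrX:71095601-71095880, plus strand: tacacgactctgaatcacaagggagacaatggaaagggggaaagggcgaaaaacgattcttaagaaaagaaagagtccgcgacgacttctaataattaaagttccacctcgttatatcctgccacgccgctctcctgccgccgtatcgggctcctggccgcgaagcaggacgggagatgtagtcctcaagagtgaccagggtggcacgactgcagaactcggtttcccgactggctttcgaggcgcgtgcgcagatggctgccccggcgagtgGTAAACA
Each of the 4 holds 1 match, which starts at base 251 in YPEL3, 267 in PIK3IP1, 127 in TXNIP and 274 in FOXO4. PIK3IP1 and TXNIP have 2 RefSeq promoters each, and the letters were found only in the 1 shown. In TXNIP the match lies before the start of the gene, and in the other 3 it lies at or just after it.

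Library properties moved with the groups. Gene counts ran from 43226082 to 49970540 per tazemetostat library and from 26024012 to 35417607 per combination library, and a gene with 0 counts could still have had up to 3, which is at most 0.115 CPM, where CPM scales each library's counts to the same total with TMM factors. These limits cover counting error only. Reads that fell in no gene took 18.4% ± 0.501 (SD, n = 3) of the tazemetostat libraries and 23.8% ± 0.923 of the combination libraries. The 3 against 3 libraries did not overlap in either measure (exact permutation test, two-sided, p = 0.1, the smallest this design allows). With all libraries thinned to equal depth 8525 genes passed the test, against 9020 at full depth. The part of the reads in no gene in the results below was not tested. Tazemetostat A and combination B were each unlike the rest of their group, with a chi-square per degree of freedom of 18.2 to 20.1 and 15.1 to 26.2 against 3.32 and 5.94 between the remaining pair, and counts given below are repeated without them where that matters. Epithelial markers were high in all 6 libraries, with EPCAM at 288 to 401 CPM and CDH1 at 252 to 297 CPM. PGR stayed at or under 0.136 CPM, while ESR1, the oestrogen receptor gene, was listed at 3.73 to 5.86 CPM.

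Ipatasertib changed 9020 of the 14874 genes tested in tazemetostat-treated cells, most of them by small amounts. Of these, 4434 were higher in the combination (29.8%) and 4586 were lower (30.8%) by edgeR's quasi-likelihood test. The 3 combination libraries all lay above the 3 tazemetostat libraries for 4378 genes (29.4%) and all lay below them for 4438 genes (29.8%). Large changes leaned upward: 966 genes rose and 434 fell by more than 2-fold, and 1192 (8.01%) rose and 807 (5.43%) fell by an amount beyond 1.5-fold in a test against that size. Scaling by total counts alone, in place of TMM, moved the median of all genes by 0.06 on the log2 scale and gave 5122 higher and 3857 lower genes. Without tazemetostat the same drug raised 3771 genes (25.4%) and lowered 4269 (28.7%) against DMSO. The changes below are log2 differences, combination minus tazemetostat, with the standard error of the fit, and levels are CPM in libraries A, B and C in that order.

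The gene with the largest rise among those that reached 5 CPM was PRSS33, a serine protease, at 0.349, 0.140 and 0.221 CPM with tazemetostat and 6.12, 4.69 and 5.86 CPM with the combination, a change of 4.54 ± 0.24 (adjusted p = 4.98e-12). PDK4, the kinase that switches off pyruvate dehydrogenase and diverts glucose carbon from oxidation, stood at 2.84, 3.47 and 3.05 CPM with tazemetostat and 37.9, 43.6 and 41.8 CPM with the combination. That is a 13.2-fold rise (3.72 ± 0.094, adjusted p = 1.70e-16), with every combination library far above every tazemetostat library. GBP2, an interferon-inducible GTPase, went from 6.15, 6.79 and 7.19 CPM to 77.2, 86.95 and 80.2 CPM (3.60 ± 0.082, adjusted p = 4.69e-17). YPEL3, a small protein linked to growth arrest, stood at 3.38, 2.16 and 3.11 CPM and then 29.3, 23.6 and 28.9 CPM (3.24 ± 0.12), and its relative YPEL2 rose by 3.53 ± 0.16. The groups did not overlap in any of these, which the rule that named them required. The other genes among the 12 largest rises were N4BP2L1, C13orf15 (RGC-32), CLEC2B, RORB, RASL11A, KCNJ2 and TMEM86A, which rose 8.02-fold to 14.8-fold from tazemetostat levels under 3 CPM.

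Keratins of the basal and stratified type were among the largest falls. KRT5, the basal cytokeratin, stood at 520.0, 462 and 458 CPM with tazemetostat and 58.5, 50.3 and 55.1 CPM with the combination, a fall of 8.78-fold (-3.13 ± 0.07, adjusted p = 4.69e-17). KRT6A went from 355, 324 and 312 CPM to 54.1, 45.8 and 48.7 CPM (-2.74 ± 0.074). KRT14, the partner of KRT5, fell from between 17.1 and 20.2 CPM to between 2.45 and 2.83 CPM, and KRT16 from between 53.1 and 59.6 CPM to between 8.33 and 10.6 CPM. No combination library reached any tazemetostat library for these 4 keratins, a condition of the rule that named them. The keratins have near-identical relatives and pseudogenes, so reads may be split among KRT5, the KRT6 genes, KRT14, KRT16 and KRT17 and their separate sizes are uncertain. MEST, an imprinted gene of the hydrolase family, fell by 6.89-fold and ELN, elastin, by 5.33-fold. The remaining large falls were LOC100507127, SLCO2A1 (a prostaglandin transporter), MYOCD (a smooth muscle coactivator), CYP4F22, CPA4 and FABP4, with log2 changes from -2.32 to -3.16.

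**Figure D1:**
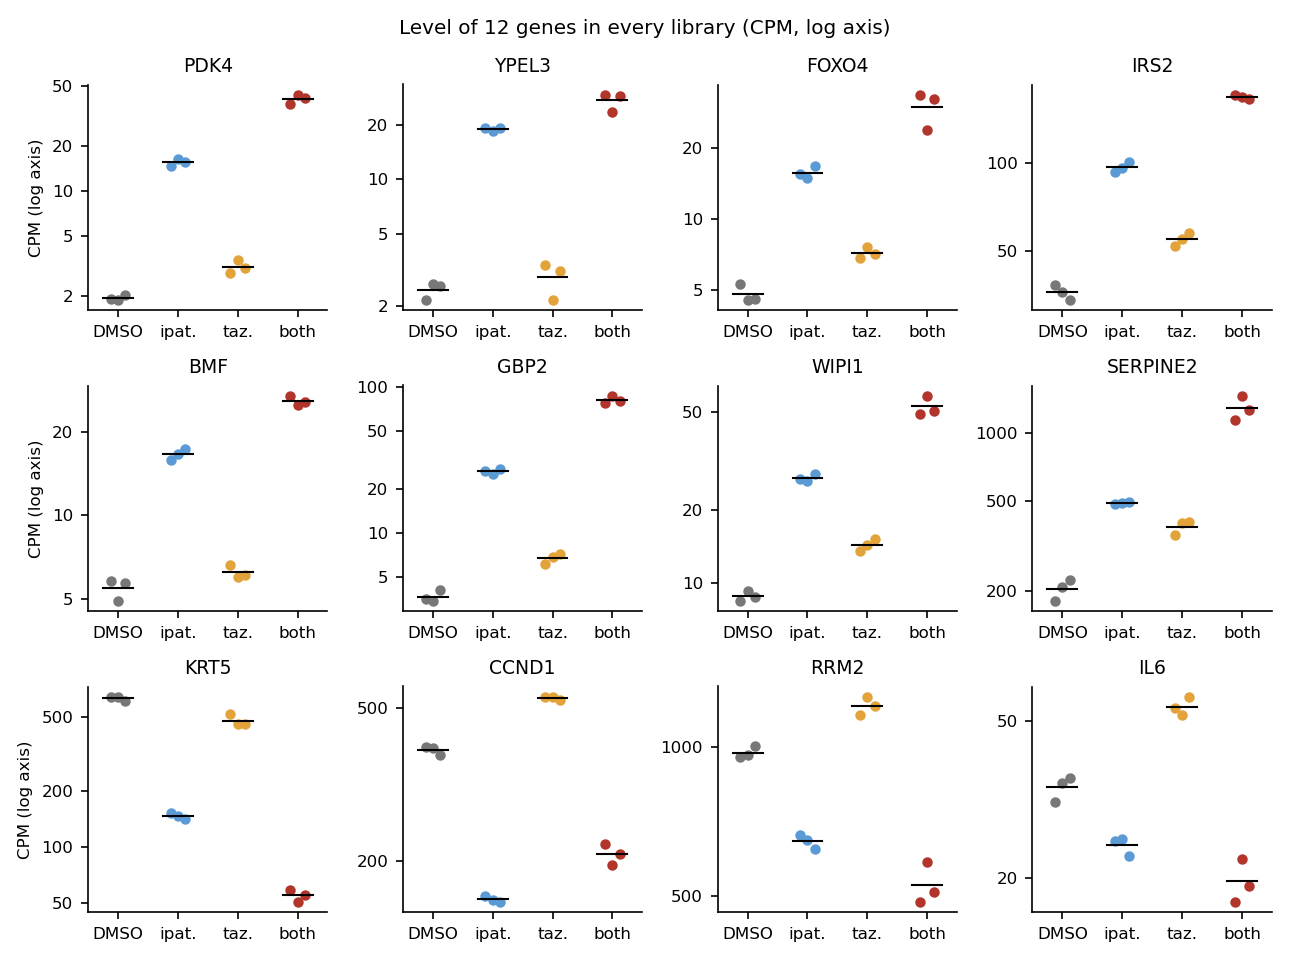
Level of 12 genes in each library, in CPM on a log axis, for DMSO, ipatasertib (ipat.), tazemetostat (taz.) and the combination (both); points are libraries A, B and C and bars are means. For each gene the 3 combination libraries lie apart from the 3 tazemetostat libraries, as for PDK4 at 37.9 to 43.6 CPM against 2.84 to 3.47 CPM and KRT5 at 50.3 to 58.5 CPM against 458 to 520 CPM.

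Most of the listed genes known to be induced by FOXO factors were higher in the combination. Of 34 listed, 32 were tested, 26 rose and 2 fell, against 29.8% higher and 30.8% lower among all genes tested. Their median change was 0.83, against -0.0018 over all genes. This list, like the others, was chosen with earlier results of these data known, so its counts describe these libraries and give no independent support. Among the receptors and adaptors of the feedback, IRS2, the adaptor that couples the insulin receptor to PI3K, stood at 51.8, 54.95 and 57.4 CPM with tazemetostat and 172, 168 and 166 CPM with the combination (1.62 ± 0.062, adjusted p = 6.86e-14). ERBB3, the kinase-poor receptor that recruits PI3K, went from 48.05, 48.97 and 50.9 CPM to 95.95, 90.4 and 90.9 CPM (0.91 ± 0.059). INSR, the insulin receptor, went from 11.1, 10.7 and 11.5 CPM to 17.6, 17.04 and 18.9 CPM (0.69 ± 0.083). The 3 rises were of 3.08-fold, 1.87-fold and 1.61-fold, and in none did the groups overlap. PIK3IP1, an inhibitor of PI3K, rose more, from 2.14, 2.23 and 1.36 CPM to 15.4, 14.1 and 15.7 CPM (2.99 ± 0.13).

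Other FOXO-induced genes act on metabolism, arrest and death. TXNIP, which restrains glucose uptake and thioredoxin, stood at 127, 136 and 132 CPM with tazemetostat and 337, 342 and 328 CPM with the combination (1.35 ± 0.052). Of the antioxidant enzymes, SOD2 rose by 1.11 and CAT by 0.75. CCNG2, an inhibitory cyclin, rose by 1.36, BCL6 by 1.41, and CDKN1B, which encodes the CDK inhibitor p27, by only 0.33 ± 0.061. TNFSF10, the death ligand TRAIL, was at 0.466, 0.721 and 0.442 CPM and then 4.41, 5.77 and 4.68 CPM, a rise of 3.19 ± 0.20 from a level under 1 CPM. FBXO32, the atrophy ubiquitin ligase, rose by 1.28, KLHL24 by 2.59 and CITED2 by 2.08. The FOXO genes themselves rose by 0.47 for FOXO1 and 0.22 for FOXO3. The 2 members that fell were GADD45A, a stress and repair gene, by 1.01, and SESN2 by 0.23. The SESN2 call was lost in 8 alternatives, with adjusted p from 0.0919 with libraries thinned to equal depth to 0.531 without tazemetostat A and combination B, and also without combination A, combination B, tazemetostat A or tazemetostat C alone. SESN1, SESN3, KLF6 and KLF9 did not pass the test.

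Among the PI3K and AKT pathway nodes the picture was mixed: 13 of 31 tested rose (41.9%) and 8 fell (25.8%), against 29.8% and 30.8% of all genes tested, with a median of 0.09. FOXO4 stood at 6.85, 7.65 and 7.13 CPM with tazemetostat and 33.6, 23.9 and 32.2 CPM with the combination, a rise of 4.15-fold (2.05 ± 0.11, adjusted p = 8.10e-12). Without combination B and tazemetostat A, which stood apart, 18 nodes rose and 7 fell, in a fit where 34.9% of all genes were higher and 29.8% lower. AKT1 was at 210.5, 187 and 193 CPM and then 177, 145 and 165 CPM (-0.27 ± 0.068, adjusted p = 0.00167, or 0.0659 without combination B and tazemetostat A). AKT2 did not pass the test, and its change of -0.07 ± 0.074 (adjusted p = 0.432) turned positive without tazemetostat A or without combination B. Without both libraries AKT2 passed as a rise (0.14, adjusted p = 0.0173). RICTOR, the core of mTORC2, the complex that phosphorylates AKT, rose by 0.59, while RPTOR, the core of mTORC1, fell by 0.31 and MTOR by 0.18. PIK3CA, the catalytic subunit of PI3K, rose by 0.40. PHLPP1 and PHLPP2, phosphatases that act on AKT, fell by 0.42 and 0.48, and the lipid phosphatase INPP4B by 0.40. DEPTOR, an mTOR inhibitor, rose by 1.33 at levels of 1.08 CPM or less.

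Receptor tyrosine kinases showed 10 rises (45.5%) and 6 falls (27.3%) among 22 tested of 26 listed, against 29.8% and 30.8% of all genes, with ERBB3 and INSR counted again here. EGFR rose by 0.67 ± 0.06, ERBB2 by 0.48 ± 0.071, IGF1R by 0.44 ± 0.053 and the collagen receptor DDR1 by 0.74 ± 0.082. FGFR1 and FGFR4, receptors for fibroblast growth factors, fell by 0.80 and 0.83. NTRK2 rose by 1.11 from between 2.05 and 2.65 CPM to between 4.95 and 5.53 CPM. ALK had the largest rise of the receptors, 3.07 ± 0.35, but from between 0.0932 and 0.261 CPM to between 1.005 and 2.01 CPM, so the rise took place near the lower end of what these libraries can measure.

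**Figure D2:**
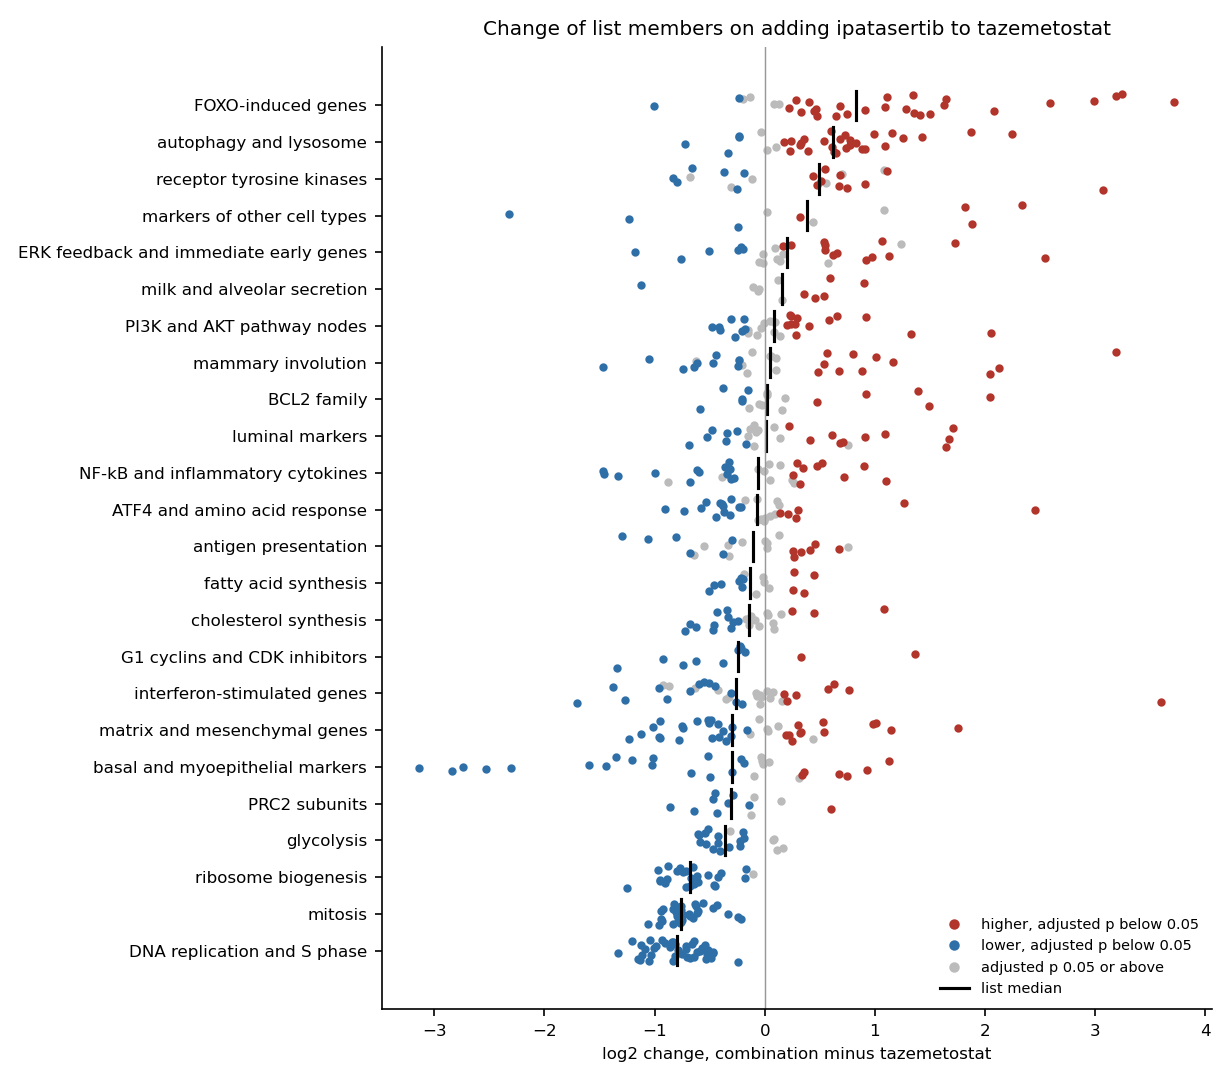
Change of each tested member of the 24 gene lists, as log2 combination minus tazemetostat on the horizontal axis, with lists ordered by their median (black bar); red and blue points passed an adjusted p of 0.05 and grey points did not. FOXO-induced genes have the highest median, 0.83, and DNA replication genes the lowest, -0.80, with all 40 members lower. The lists were chosen with earlier results of these data known.

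All 26 ribosome biogenesis genes were tested, 25 fell and none rose, against 30.8% lower and 29.8% higher among all genes. Their median was -0.68. TCOF1, which supports ribosomal RNA transcription, stood at 151, 129 and 136 CPM with tazemetostat and 82.2, 62.8 and 67.7 CPM with the combination (-0.97 ± 0.086, adjusted p = 8.49e-09). Of the nucleolar factors, NOP2 fell by 0.95, NOLC1 by 0.90, NOP56 by 0.88 and NCL, nucleolin, by 0.64. POLR1A, the largest subunit of RNA polymerase I, fell by 0.61. BOP1 had the largest fall, -1.25 ± 0.16, from between 5.51 and 6.89 CPM to between 2.23 and 3.01 CPM. POLR1C, at -0.11, was the 1 member that did not pass.

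Most glycolysis genes fell. Of 20 tested, 15 fell (75%) and none rose, against 30.8% lower and 29.8% higher among all genes. Their median was -0.36, and none changed beyond 1.5-fold by test. PGK1, which makes the first ATP of the payoff phase, went from 1020.0, 1011 and 981 CPM to 633, 695 and 658 CPM (-0.60 ± 0.051). PGAM1 fell by 0.60, LDHA, which makes lactate, by 0.59, HK2, the inducible hexokinase, by 0.42 and GAPDH by 0.33. Several of these enzymes have processed pseudogenes that can share reads. SLC2A1, the main glucose transporter, fell by 0.19 (adjusted p = 0.0185), a call that was lost without combination B (adjusted p = 0.219), combination C (0.115) or tazemetostat A (0.131), with the 6 libraries fitted alone (0.064) and with total counts alone (0.116). Without the pair of libraries that stood apart 11 glycolysis genes fell and 2 rose. In that fit 29.8% of all genes were lower and 34.9% higher.

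Lipid genes moved in both directions. In cholesterol synthesis 11 of 25 genes fell (44%) and 3 rose (12%), against 30.8% and 29.8% of all genes. The median was -0.15. HMGCS1, an early enzyme of the mevalonate route, fell by 0.68, SQLE by 0.44, EBP by 0.62 and ACAT2 by 0.73, while TM7SF2, a sterol reductase, rose by 1.08 from between 10.3 and 13.6 CPM to between 20.6 and 27.04 CPM. Without the libraries that stood apart, 6 cholesterol genes rose and 11 fell, in a fit where 34.9% of all genes were higher and 29.8% lower. In fatty acid synthesis 7 of 16 tested genes fell (43.75%) and 4 rose (25%), against 30.8% and 29.8% of all genes. ACLY, which makes cytosolic acetyl-CoA, went from 272, 270.1 and 266 CPM to 196, 184 and 189 CPM (-0.51 ± 0.05) and ELOVL5 fell by 0.46, whereas the desaturase SCD rose by 0.45 and the regulator SREBF1 by 0.26 ± 0.077.

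Genes of the ATF4 and amino acid response did not move one way. Of 29, 6 rose (20.7%) and 13 fell (44.8%), against 29.8% and 30.8% of all genes. ATF4 itself stood at 302, 277 and 281 CPM and then 349, 357 and 344 CPM (0.29 ± 0.052, adjusted p = 8.07e-05). NUPR1, a stress-induced nuclear protein, rose from 11.9, 10.5 and 10.4 CPM to 63.4, 53.3 and 62.5 CPM (2.45 ± 0.085) and SLC7A11, the cystine transporter, by 1.26. Serine and one-carbon enzymes were split, with PSAT1 lower by 0.90, MTHFD2 lower by 0.73 and PHGDH higher by 0.30. The amino acid transporter SLC7A5 fell by 0.53, and TRIB3 did not pass (adjusted p = 0.0573).

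Most autophagy and lysosome genes rose. Of 34 tested of 35 listed, 27 rose (79.4%) and 4 fell (11.8%), against 29.8% and 30.8% of all genes. Their median was 0.62, the second highest of the 24 lists. WIPI1, which binds phosphoinositides on the forming autophagosome, stood at 13.5, 14.3 and 15.2 CPM with tazemetostat and 49.1, 58.2 and 50.6 CPM with the combination, a rise of 3.66-fold (1.87 ± 0.078, adjusted p = 1.80e-13). TP53INP1 went from 2.54, 3.19 and 3.47 CPM to 14.5, 15.8 and 13.6 CPM (2.24 ± 0.12). The groups were wide apart for both genes. The cargo receptor SQSTM1 rose by 1.43, the kinase ULK1, which starts autophagy, by 1.16, and the membrane protein MAP1LC3B by 0.78. TFEB, the transcription factor of lysosomal genes, rose by 0.73 and its known target RRAGD by 1.25. Within the lysosome, the proteases CTSD and CTSB rose by 0.74 and 0.88 and the membrane protein LAMP1 by 0.53. GLA, alpha-galactosidase, fell by 0.72. Without tazemetostat A and combination B, 26 members rose and 2 fell, in a fit where 34.9% of all genes were higher and 29.8% lower.

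All 40 DNA replication and S phase genes were tested and all 40 fell, 23 of them beyond 1.5-fold by test, with a median of -0.80. All 32 mitosis genes fell, 18 beyond 1.5-fold, with a median of -0.76. All 40 and all 32 also fell without the libraries that stood apart. Among all genes tested 30.8% fell in the full fit (5.43% beyond 1.5-fold) and 29.8% without those libraries. RRM2, the ribonucleotide reductase subunit that limits nucleotide supply, stood at 1162, 1267 and 1214 CPM with tazemetostat and 485, 585 and 509 CPM with the combination (-1.21 ± 0.064, adjusted p = 6.09e-12). MCM10, which acts at the start of DNA replication, went from 104, 106 and 102 CPM to 39.9, 41.3 and 42.6 CPM (-1.33 ± 0.056). CDC6 and ORC1, which license origins, fell by 1.13 and 1.09, CLSPN by 1.15, TYMS by 1.05, and the helicase subunit MCM2 by 0.47. CCNE1, the cyclin that starts S phase, had the smallest fall, 0.24 ± 0.067.

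In mitosis AURKA, the spindle kinase, went from 333, 339.6 and 334 CPM to 146, 185 and 153 CPM (-1.06 ± 0.071). MKI67, which encodes Ki-67, stood at 444, 512 and 492 CPM with tazemetostat and 283, 255 and 227 CPM with the combination (-0.92 ± 0.089). ANLN fell by 0.96, PLK1 by 0.80, CDK1 by 0.79, CCNB1 by 0.75 and TOP2A by 0.44. Of the 11 tested G1 cyclins and CDK inhibitors, 9 fell (81.8%) and 2 rose (18.2%), against 30.8% and 29.8% of all genes. CCND1, cyclin D1, which couples growth factors to CDK4 and CDK6, stood at 534, 532 and 523 CPM and then 222, 196 and 209 CPM, a fall of 2.54-fold (-1.34 ± 0.055, adjusted p = 1.69e-13). CCND3 fell by 0.75, CDK6 by 0.62 and CDK4 by 0.38. CDKN1A, the inhibitor p21, fell by 0.93, and the 2 members that rose were CDKN1B and CDKN1C (1.36 ± 0.24, at 3.40 CPM or less). MYC fell by 0.21 ± 0.055. In bulk RNA, fewer cells in a phase and less RNA per cell cannot be told apart.

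Among BCL2 family genes the largest rises were of BH3-only genes, which promote death. BMF, which is released to inhibit BCL2 proteins, stood at 6.64, 6.002 and 6.14 CPM with tazemetostat and 26.9, 24.9 and 25.6 CPM with the combination, a rise of 4.12-fold (2.04 ± 0.085, adjusted p = 1.77e-13). BCL2L11, which encodes BIM, went from 17.7, 20.1 and 17.8 CPM to 27.2, 26.1 and 24.3 CPM (0.48 ± 0.078). BBC3, which encodes PUMA, rose by 1.49 ± 0.12 from between 2.75 and 3.21 CPM to between 7.74 and 8.85 CPM, and HRK by 1.39. Of the other BH3-only genes PMAIP1 fell by 0.38 and BID by 0.21, and BAD and BIK did not pass. BNIP3L rose by 0.92, and the effector BAK1 fell by 0.58. MCL1, a survival member, fell by 0.15 ± 0.052 (adjusted p = 0.0174), and this call was lost with the 6 libraries fitted alone (0.0863), with total counts alone (0.151) and without combination A (0.0783), combination C (0.153), tazemetostat B (0.116) or tazemetostat C (0.0943), values that are adjusted p. Altogether 5 of the 17 tested members rose and 5 fell, 29.4% each way and close to the 29.8% and 30.8% of all genes. Without the libraries that stood apart 10 rose and 3 fell, in the fit with 34.9% of all genes higher and 29.8% lower.

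The mammary involution list, which holds genes of the regression of the gland after lactation, had 11 rises (37.9%) and 9 falls (31.0%) among 29 tested of 32 listed, against 29.8% and 30.8% of all genes. IGFBP5, an IGF-binding protein induced in involution, stood at 66.2, 69.2 and 72.7 CPM with tazemetostat and 342, 271 and 298 CPM with the combination (2.13 ± 0.087, adjusted p = 1.63e-13). Its cytokines went the other way. IL6 went from 53.9, 51.7 and 57.6 CPM to 17.4, 22.4 and 19.1 CPM (-1.47 ± 0.086) and LIF from 23.9, 22.7 and 19.8 CPM to 16.3, 12.1 and 14.8 CPM (-0.62 ± 0.12). STAT3, through which both act, did not pass the test at 0.05 ± 0.056 (adjusted p = 0.438), though it did without combination B (0.14, adjusted p = 0.02). Clusterin (CLU) rose by 0.68, TIMP1 by 0.81, and the urokinase PLAU fell by 1.05. Only 11 of 20 milk and alveolar secretion genes were tested, with 5 higher (45.45%) and 1 lower (9.09%), against 29.8% and 30.8% of all genes. STAT5A rose by 0.90 and the prolactin receptor PRLR fell by 1.13. The casein genes did not pass the filter on low counts.

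Among basal and myoepithelial markers 17 of 29 tested fell (58.6%) and 6 rose (20.7%), against 30.8% and 29.8% of all genes. Their median was -0.30. Beside the keratins above, KRT17 fell by 2.30, LAMA3, a laminin chain, by 1.03 and SNAI2, a transcription factor of basal cells, by 1.01. TP63, a defining basal factor, did not pass, at -0.04 ± 0.099, and COL17A1, KRT15 and NGFR rose by 0.74, 0.92 and 1.13. Luminal markers had 10 rises (38.5%) and 7 falls (26.9%) among 26 tested of 35 listed, not far from the shares of all genes (29.8% and 30.8%). GATA3, a transcription factor of luminal cells, stood at 40.2, 40.9 and 40.8 CPM and then 90.2, 84.98 and 84.2 CPM (1.09 ± 0.058, adjusted p = 6.16e-12). ELF3, an epithelial ETS factor, went from 29.7, 27.2 and 25.6 CPM to 92.1, 81.5 and 89.9 CPM (1.68 ± 0.076). AGR2 rose by 1.64 and CLDN4 by 0.71, while the luminal keratin KRT8 fell by 0.48. The other falls were of CD24 (0.69), ESR1 (0.52), CLDN7 (0.36), KRT18 (0.34), KRT7 (0.25) and CDH1 (0.17). FOXA1, XBP1, KRT19, MUC1 and EPCAM were among the members that did not pass.

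Inflammatory and interferon genes held some of the largest single changes without a shared direction. Of 31 NF-kB and cytokine genes 9 rose (29.0%) and 13 fell (41.9%), against 29.8% and 30.8% of all genes. The interleukin-1 genes IL1A and IL1B fell, IL1A from 21.7, 22.3 and 23.4 CPM to 6.91, 8.67 and 8.82 CPM (-1.46 ± 0.093) and IL1B by 0.996, and the chemokine CXCL6 by 1.33. CSF1, the macrophage growth factor, rose by 1.10, PTGS2 by 0.91 and CXCL3 by 0.72. Of 35 interferon-stimulated genes tested 7 rose (20%) and 13 fell (37.1%), against 29.8% and 30.8% of all genes. Without the libraries that stood apart 10 rose and 10 fell, in a fit where 34.9% of all genes were higher and 29.8% lower. GBP1 fell by 1.70, OASL by 1.38 and IFI44 by 1.27, whereas GBP2, a relative of GBP1, rose as given above. In antigen presentation 6 of 22 rose and 6 fell, 27.3% each way and near the shares of all genes, with the peptide transporter TAP2 going from 148, 137 and 135 CPM to 65.5, 47.8 and 57.9 CPM (-1.29 ± 0.083) and the proteasome subunit PSMB9 falling by 1.06. In the fit without the libraries that stood apart 9 antigen presentation genes rose and 6 fell. HLA class I genes share reads among themselves, so their small rises are uncertain.

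The target of tazemetostat and its partners were lower with ipatasertib added. EZH2 stood at 67.4, 71.7 and 70.2 CPM with tazemetostat and 36.6, 42.9 and 36 CPM with the combination, a fall of 1.81-fold (-0.86 ± 0.072, adjusted p = 4.14e-09). EED fell by 0.64 and SUZ12 by 0.45, and altogether 8 of 12 PRC2 genes fell (66.7%), against 30.8% of all genes. EZH1, the paralog, was the 1 that rose, by 0.60.

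ERK feedback and immediate early genes rose in 13 of 28 cases (46.4%) and fell in 6 (21.4%), against 29.8% and 30.8% of all genes. Without the libraries that stood apart 17 rose and 4 fell, in a fit where 34.9% of all genes were higher and 29.8% lower. SPRY1, an inhibitor of receptor signalling, rose by 1.73 from between 1.07 and 1.35 CPM to between 3.65 and 4.38 CPM, SPRY4 by 1.07 and the ERK phosphatase DUSP6 by 0.92. FOSL1, an AP-1 subunit, fell by 1.18 and DUSP7 by 0.76. In the matrix and mesenchymal list 21 of 39 tested fell (53.85%) and 12 rose (30.77%), against 30.8% and 29.8% of all genes. SERPINE2, an inhibitor of thrombin and plasminogen activators, stood at 352, 398 and 403 CPM and then 1146, 1468 and 1275 CPM (1.75 ± 0.085). The basement membrane collagen COL4A1 fell by 0.95, VCAN by 0.96 and CYR61 by 1.12. Fibronectin (FN1) rose by 0.54 and the crosslinker LOX by 1.15.

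Most markers of other cell types were at low levels, with 8 of the 18 not tested and 12 of 18 under 1 CPM in the tazemetostat and in the combination libraries. Their summed level was 309 to 344 CPM with tazemetostat and 258 to 295 CPM with the combination, of which CD68, a lysosomal protein that this epithelial line also expresses, made up most. Of the 10 tested, 4 rose (40%) and 3 fell (30%), against 29.8% and 30.8% of all genes. The 4 that rose were PTPRC, the leukocyte gene CD45, from between 0.302 and 0.402 CPM to between 1.47 and 2.19 CPM, the endothelial genes PECAM1 (1.82, from at most 1.53 CPM to between 3.44 and 5.20 CPM) and CDH5 (1.88), and the stromal gene DCN (0.32). The 3 that fell were the adipocyte gene FABP4 (-2.32, from between 7.15 and 8.57 CPM to between 1.15 and 1.79 CPM), the collagen gene COL3A1 (-1.23) and CD68 (-0.24). ADIPOQ, another adipocyte marker, was at 0 counts in all 6 libraries. The part of these markers in the other results was not tested.

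Whether ipatasertib acted differently once tazemetostat was present was tested as the difference between its effects, combination minus tazemetostat against ipatasertib minus DMSO, which share no library. Both effects passed in the same direction for 3128 higher and 3515 lower genes. The difference itself was called for 539 genes (3.62%), 278 with a more positive effect under tazemetostat (1.87%) and 261 with a more negative one (1.75%). It went beyond 1.5-fold by test for 16 genes (0.108%), 14 positive and 2 negative. These counts rest on few libraries. Leaving out each of the 12 libraries in turn gave 243 to 2443 genes for the difference, and leaving out tazemetostat A and combination B together gave 4766. The counts beyond 1.5-fold were 7 to 22 and 28.

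**Figure D3:**
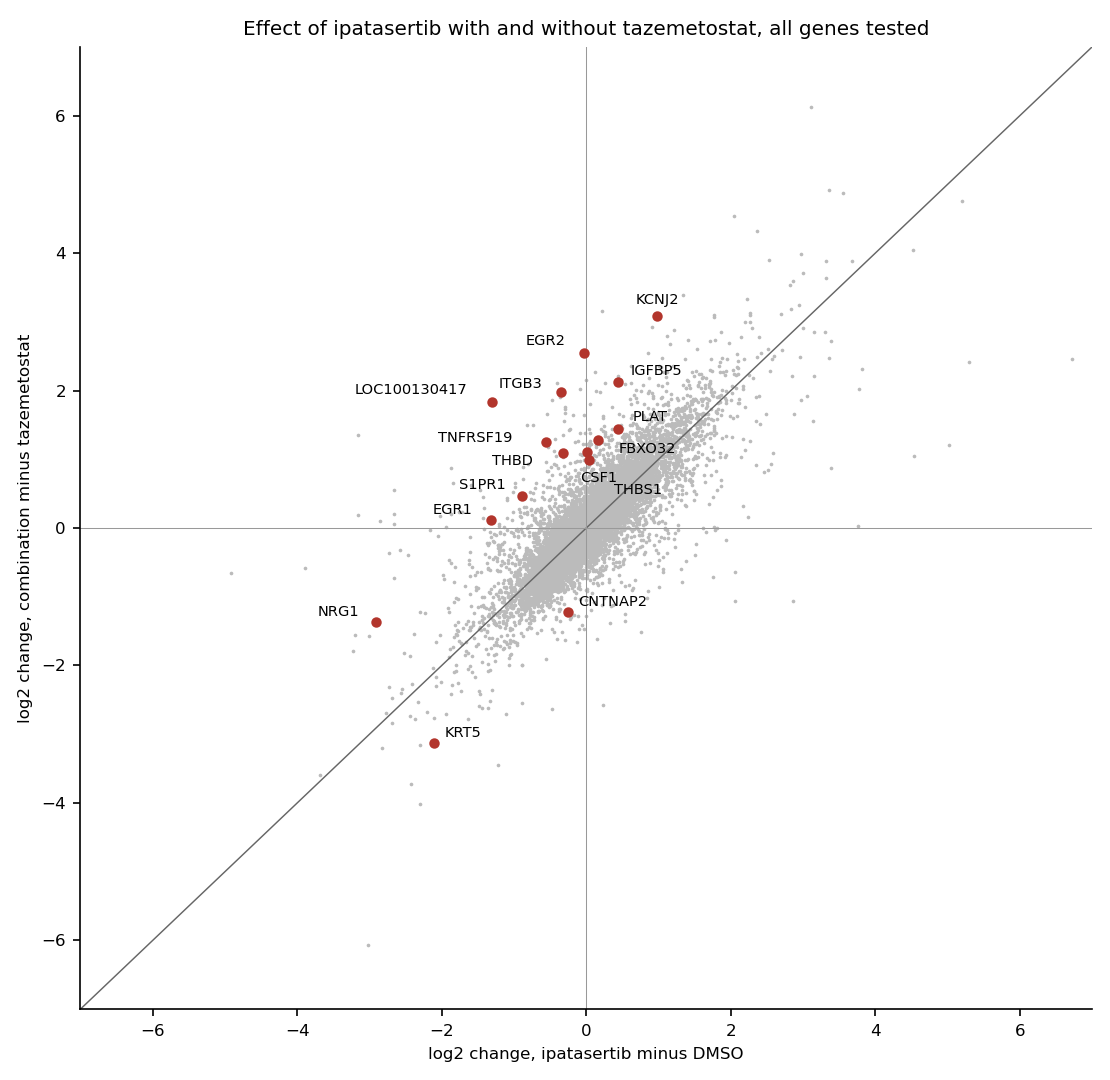
Log2 change with ipatasertib in the absence of tazemetostat (horizontal) and in its presence (vertical) for all 14874 genes tested, with the line of equal change; red points are the 16 genes whose difference exceeded 1.5-fold by test. KRT5 and CNTNAP2 lie below the line and the other 14 above it; unmarked points far from the line did not pass that test.

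For 22 of the 40 S phase genes the fall was larger with tazemetostat than without it by the test of the difference. The difference was negative in sign for all 40, and 1.75% of all genes had a called negative difference. Their median change was -0.80 with tazemetostat and -0.44 without it. RRM2 stood at 957, 964 and 1005 CPM under DMSO and 664, 649 and 622 CPM with ipatasertib, a change of -0.60 ± 0.063, against -1.21 ± 0.064 with tazemetostat (difference -0.61 ± 0.089, adjusted p = 0.000488). For CCNE1 the direction turned: it rose by 0.23 ± 0.072 without tazemetostat and fell by 0.24 with it (difference -0.47 ± 0.098, adjusted p = 0.00942). CCNE2 fell by 0.22 without and 0.83 with tazemetostat. The count of 22 fell to 12 without combination C, tazemetostat B or DMSO B and to 10 without ipatasertib A or ipatasertib B, and was 28 without combination B and 29 without combination B and tazemetostat A. Over all genes the called differences, 539 in the full fit, were 243 to 313 in the fits with 12 or 10. They were 2443 and 4766 in the fits with 28 and 29, so the S phase counts cannot be compared between fits. The mitosis list followed with 7 of 32 called, all negative, and medians of -0.76 with and -0.49 without tazemetostat. Medians also lay apart with and without tazemetostat for receptor tyrosine kinases (0.49 and 0.17), ERK feedback genes (0.20 and -0.05), PRC2 subunits (-0.31 and -0.10) and cholesterol synthesis genes (-0.15 and -0.0065). They were closer, at 0.83 and 0.77 for FOXO-induced genes, 0.62 and 0.57 for autophagy and lysosome genes and -0.68 and -0.67 for ribosome biogenesis genes. Against 1.87% positive and 1.75% negative among all genes, the difference was called as positive for 4 of 32 FOXO-induced genes, 5 of 28 ERK feedback genes and 5 of 26 luminal markers. It was called as positive for 8 and negative for 1 of 39 matrix genes, for 5 and 4 of 31 NF-kB and cytokine genes and for 5 and 1 of 29 mammary involution genes. No autophagy, ribosome or glycolysis gene had a called difference.

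**Figure D4:**
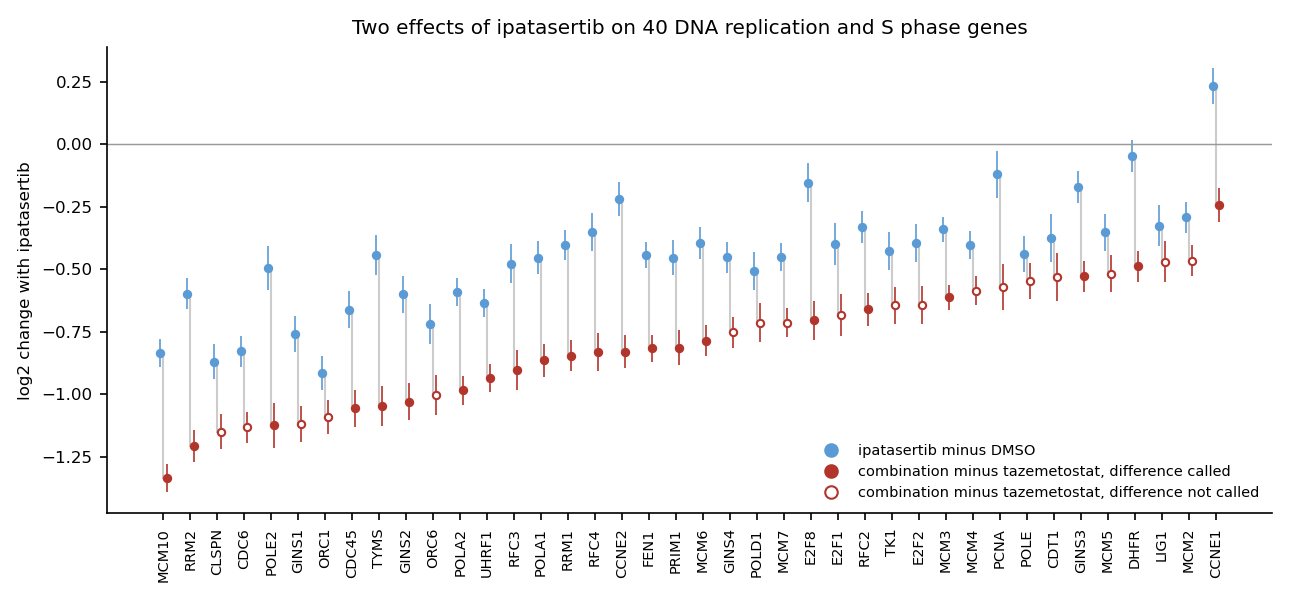
Log2 change with ipatasertib of the 40 DNA replication and S phase genes, without tazemetostat (blue) and with it (red), with standard errors of the fit over 3 libraries a group. Every red point lies below its blue point; filled red points mark the 22 genes whose difference was called, and CCNE1 has effects of opposite sign.

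The 16 genes with a difference beyond 1.5-fold include growth factors, matrix proteins and immediate early factors. IGFBP5 showed the effect from a raised level: it stood at 3.05, 3.49 and 3.69 CPM under DMSO, 3.81, 4.79 and 5.52 CPM with ipatasertib, 66.2, 69.2 and 72.7 CPM with tazemetostat and 342, 271 and 298 CPM with both. Ipatasertib changed it by 0.44 alone and by 2.13 with tazemetostat (difference 1.69 ± 0.17, adjusted p = 5.41e-06). ITGB3, the beta-3 integrin, stood at 2.02, 2.26 and 2.22 CPM, 1.63, 1.56 and 1.91 CPM, 2.12, 1.93 and 1.87 CPM and 8.02, 7.14 and 8.03 CPM in the same order of groups, with the highest levels in the combination (difference 2.33 ± 0.19, adjusted p = 7.62e-07). TNFRSF19, a receptor of the TNF family, followed the same pattern, with 15.03 to 15.4 CPM in the combination against 5.89 to 6.67 CPM with tazemetostat, and fell with ipatasertib alone. EGR2, an immediate early factor, was at 0.262 to 0.481 CPM, 0.304 to 0.401 CPM, 0.482 to 0.558 CPM and 2.72 to 3.49 CPM.

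Other genes were lowest with tazemetostat and higher once ipatasertib was added. THBS1, thrombospondin 1, stood at 4149 to 4384 CPM under DMSO, 4220.0 to 4591 CPM with ipatasertib, 821 to 913 CPM with tazemetostat and 1620.0 to 1738 CPM with both. FBXO32 was at 75.99 to 80.8, 86.7 to 89.5, 21.8 to 24.1 and 51.5 to 59.5 CPM in the same order, and CSF1 at 99.7 to 101, 95.4 to 104, 31.5 to 33.9 and 60.3 to 77.4 CPM. In these 3 genes the combination libraries lay between the tazemetostat libraries and those without tazemetostat. For EGR1 and for NRG1, the ERBB3 ligand neuregulin, the effect was more positive with tazemetostat. EGR1 fell by 1.32 with ipatasertib alone and did not pass with tazemetostat (0.11 ± 0.099, adjusted p = 0.341, or 0.0269 without combination B), and NRG1 fell by 2.91 alone and 1.37 with it. KRT5 went the other way, falling by 2.11 alone and 3.13 with tazemetostat (difference -1.02 ± 0.092, adjusted p = 1.76e-06), and CNTNAP2 fell by 0.25 and 1.22. IL33, an alarmin cytokine not among the 16, rose by 0.83 ± 0.097 without tazemetostat, and its change of -0.20 ± 0.092 with it did not pass (adjusted p = 0.0687; difference -1.03 ± 0.13, adjusted p = 0.000124). The fall of IL33 with tazemetostat passed without combination B (-0.30, adjusted p = 0.0006135) and without tazemetostat A (-0.24, adjusted p = 0.03521), with no filter on low counts (0.02626), with the replicate block (0.03513) and without both libraries (2.14e-06).

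**Figure D5:**
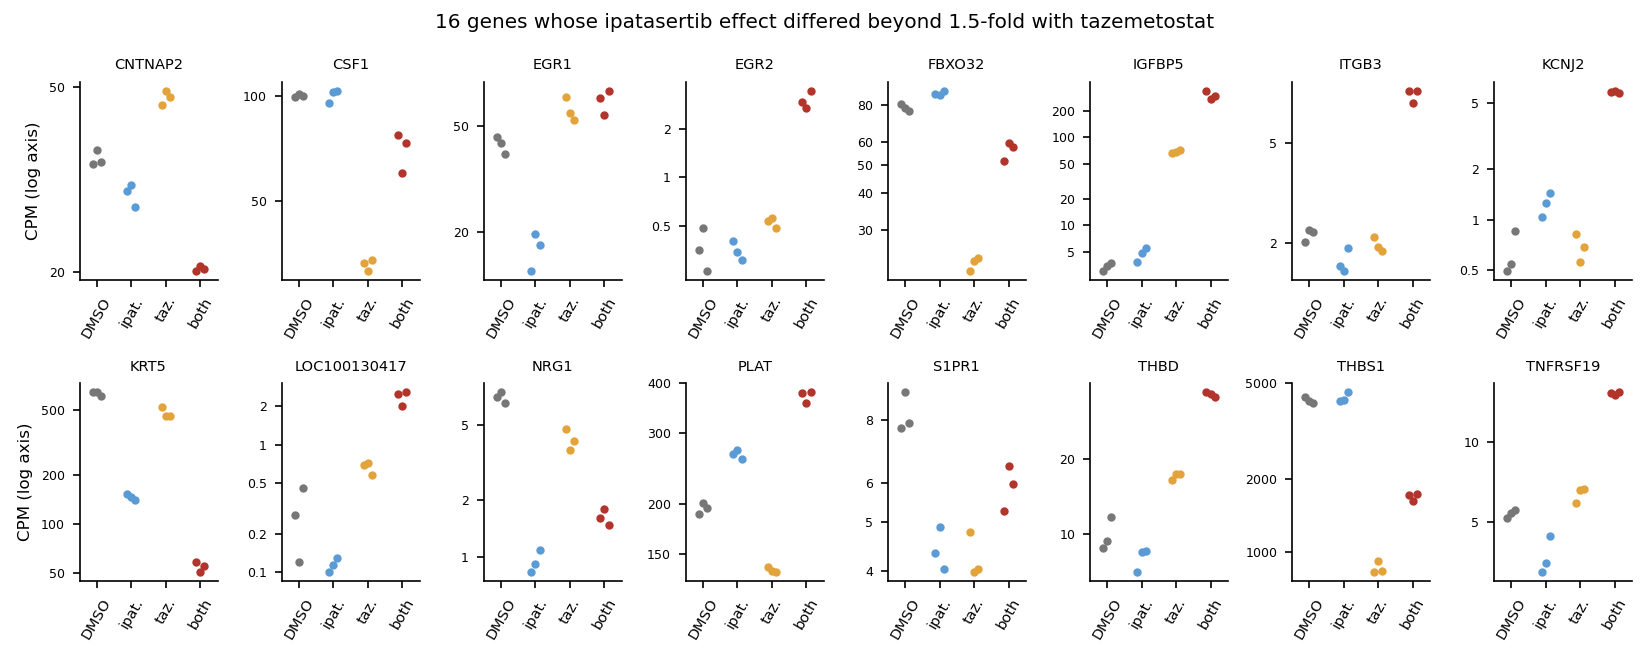
Level of the 16 genes in each library, in CPM on log axes that differ between panels, for DMSO, ipatasertib (ipat.), tazemetostat (taz.) and the combination (both). ITGB3, EGR2, KCNJ2 and TNFRSF19 are highest in the combination, whereas THBS1, CSF1 and FBXO32 are lowest with tazemetostat.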

How the data were processed

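RNA was sequenced from polyadenylated transcripts of SUM149PT cells in 4 groups of 3 libraries. The authors deposited 1 table of raw read counts per gene and library, made, per the submitters' processing notes, with STAR, SAMtools, HTSeq and DESeq2 on the build hg19. Their versions, the annotation and the use of strand were not given in the sources used here, so reads of overlapping or antisense genes cannot be told apart. The 5 summary lines, 29.8% to 38.6% of reads, were left out of library sizes. Counts were analysed with edgeR 4.0.16 in R 4.3.3: filterByExpr, TMM, all 12 libraries in 1 quasi-likelihood fit, Benjamini-Hochberg adjustment over all genes tested and a threshold of 0.05, with glmTreat for changes beyond 1.5-fold. The script was tested on simulated data. Alternatives used DESeq2 1.42.0, other scalings, filters, depths and left-out libraries. Members and lists were chosen with earlier results of these data known. Named genes are the 12 largest rises and falls at 5 CPM or more whose 3 and 3 libraries did not overlap. To these were added a fixed panel, 2 members per list with the largest called change and the 4 largest differences each way. Further list members were named by role, and all 16 genes with a difference beyond 1.5-fold, after their values were seen. Permutation tests of library properties were exact. Not every gene given by the rule is printed, and some are not reported here.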

Additional observations from a re-analysis of the deposited data

Results flagged for a closer look

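For 16 genes the effect of ipatasertib with tazemetostat differed from its effect without tazemetostat by more than 1.5-fold in the test of that difference (edgeR, adjusted p below 0.05). The log2 differences were 3.14 ± 0.56 for LOC100130417, 2.58 ± 0.40 for EGR2, 2.33 ± 0.19 for ITGB3, 2.10 ± 0.32 for KCNJ2 and 1.80 ± 0.15 for TNFRSF19. They were 1.69 for IGFBP5, 1.54 for NRG1, 1.43 for EGR1, 1.42 for THBD (thrombomodulin), 1.36 for S1PR1 (a sphingosine phosphate receptor), 1.11 for FBXO32, 1.09 for CSF1, 0.99 for PLAT (tissue plasminogen activator) and 0.95 for THBS1. The 2 negative differences were -1.02 for KRT5 and -0.97 for CNTNAP2. KCNJ2, an inward rectifier potassium channel, stood at 0.558 to 0.815 CPM with tazemetostat and 5.75 to 5.95 CPM with the combination. PLAT stood at 189 to 201 CPM under DMSO, 258 to 273 CPM with ipatasertib, 135 to 139.7 CPM with tazemetostat and 356 to 380.2 CPM with both. LOC100130417 and EGR2 were under 1 CPM in the groups other than the combination. The sign of the difference was the same for all 16 in each of the 13 alternatives that could give it, and all 16 differences were called when any 1 of the 6 DMSO and ipatasertib libraries was left out. That call is the plain test of the difference. The test beyond 1.5-fold passed 7 to 12 genes in those fits. The 16 were picked for this difference in the same libraries, so keeping it is largely fixed in advance and is no further support.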

How the results depend on the processing

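Under 14 alternatives the number of genes changed by ipatasertib on tazemetostat and its split by direction stayed within 1.5 times the 9020, 4434 higher and 4586 lower, and so did the 1999 genes beyond 1.5-fold under the 13 that could give that count. The number of genes with a difference between the 2 ipatasertib effects was less stable: 539 became 928 with DESeq2, 905 with no filter on low counts, 243 to 2443 when each of the 12 libraries was left out in turn (the DMSO and ipatasertib libraries added after seeing the data) and 4766 without tazemetostat A and combination B together. The libraries that moved it by over 1.5 times were combination B (2443) and C (274) and tazemetostat A (1046), B (313) and C (282), DMSO A (329) and B (278), and ipatasertib A (243) and B (276), and the cause was not tested. Differences beyond 1.5-fold numbered 7 to 22 with 1 library left out, 7 of them without combination C or ipatasertib A, 9 without DMSO A or ipatasertib B, and 28 without tazemetostat A and combination B together. A fit with the replicate letter as a block gave 9213 changed genes and 753 differences. Whether the letters pair the libraries is not settled. Deviations from the group mean correlated at 0.637 for A, 0.563 for B and -0.305 for C. Combination A and B each correlated best with the tazemetostat library of the same letter, but combination C with tazemetostat A (0.414). AKT2 ran from -0.0969 without combination A to 0.0534 without combination B when 1 library was left out, was 0.0362 without tazemetostat A, and 0.135 without both, TRIB3 (0.0079) turned positive without both, and the median of the NF-kB list turned from -0.06 to 0.000496 with total counts alone. Of 216 named genes, 205 kept direction and side of the threshold in every alternative. Without tazemetostat A and combination B, an alternative added after seeing the data for the lists, counts of called members moved by over 1.5 times in the cholesterol, glycolysis, BCL2 family, PRC2 and autophagy lists: cholesterol genes higher from 3 to 6, glycolysis higher from 0 to 2, BCL2 family from 5 higher and 5 lower to 10 and 3, PRC2 higher from 1 to 2 and autophagy lower from 4 to 2. Depth limits values near 0.115 CPM, the level of 3 counts in the shallowest of the 6 libraries.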

Other observations

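For 50 of the 14874 genes tested ipatasertib acted in opposite directions with and without tazemetostat, both effects past the threshold. The difference itself was called for 49 of the 50, and for 3.62% of all genes. The 50 were picked in the same fit for 2 effects of opposite sign. That call was therefore largely fixed in advance and is no further support. Of the 50, 32 rose with tazemetostat and fell without it, and 18 did the reverse. The genes named here were chosen after their values were seen. Among the 32 were secreted factors and their binding partners. HBEGF, an EGFR ligand, stood at 10.9, 10.3 and 10.1 CPM with tazemetostat and 10.96, 13.7 and 12.8 CPM with the combination (0.26 ± 0.091), and at 7.31, 7.97 and 7.68 CPM under DMSO and 4.37, 4.71 and 4.39 CPM with ipatasertib (-0.77 ± 0.11), but its rise with tazemetostat did not pass with libraries thinned to equal depth (adjusted p = 0.142) or with the 6 libraries fitted alone (0.0587). INHBA, the activin A subunit, changed by 0.39 ± 0.058 with and -0.25 ± 0.058 without tazemetostat. SGK1, a kinase related to AKT, changed by 0.29 ± 0.066 and -0.62 ± 0.07. The NF-kB targets BIRC3 and ICAM1 rose by 0.32 and 0.25 with tazemetostat and fell by 0.51 and 0.22 without it. THBD, the thrombin receptor thrombomodulin, changed by 1.09 and -0.32.

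Among the 18 genes of the reverse pattern were 2 of the sterol pathway. IDI1, an isoprenoid enzyme, changed by -0.28 ± 0.078 with tazemetostat and 0.20 ± 0.079 without it. INSIG1, which holds the sterol sensor in the endoplasmic reticulum, changed by -0.24 ± 0.064 and 0.19 ± 0.067. CCNE1 belongs to the same 18. IL24, a cytokine, changed by -0.60 and 1.07, and its fall with tazemetostat did not pass without combination C (adjusted p = 0.0752) or without tazemetostat B (0.0541).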
